A study of Mus musculus with 2 samples.

Results

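The 8 genes Dusp5, Dusp6, Fhl2, Rasd1, Rasl11b, Cpne7, Zdhhc2 and Hunk, out of 32285 in the matrix, were followed over whole coronal sections of the mouse brain. They were chosen by their measured ratios between hippocampal spots with and without a transcript of Arc or Egr1 in these same sections, which they had led. That hippocampal contrast is therefore described here and carries no support of its own. The questions were where in the section each gene was expressed and how much of its link to Arc and Egr1 went with region.

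Expression was measured by Visium spatial transcriptomics. Barcoded capture spots on the slide take up polyadenylated RNA from the tissue lying on them, and each spot can cover several cells or parts of cells. RNA molecules were counted as unique molecular identifiers (UMIs). Both mice were male ArcCreERT2::eYFPflx animals of 3 to 4 months on a C57BL/6 background, in which a tamoxifen-dependent Cre recombinase is driven by the Arc promoter and opens a yellow fluorescent reporter. The trained mouse had learned active place avoidance, in which an animal on a rotating arena keeps out of a zone that delivers foot shock, and the untrained mouse had walked the same arena with the shock off. Both took a retention test of 10 min with the shock off 24 h after the last session, and brains were removed 60 min later. Each group held 1 section of 1 mouse (n = 1 and n = 1), so no p-value, standard error or replicate check was possible, and every interval below is a 95% interval that covers counting error only. It is uncertain whether the deposited labels trained and untrained match those used in the publication, so directions below are for the labels as deposited.

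Depth differed: 29515831 UMIs over 4152 spots under the label trained (median 5950.5 per spot) and 59029131 over 3738 under the label untrained (median 13766.5). The 8 genes, a list of 33 immediate early genes (IEGs) and the gene families described below were left out of the clustering that divided the sections into regions. The level of a member by region was thus not set by the clustering. The hippocampus held 576 spots in the section labelled trained and 559 in the section labelled untrained. It was divided into a CA1 layer (179 and 193 spots, led by Lefty1, Spink8 and Fibcd1), a CA2 and CA3 layer (102 and 129), a dentate granule layer (129 and 157, led by Dsp, C1ql2 and Prox1) and the neuropil between them (166 and 80). The neocortex held 650 spots in each section. A cluster led by Cartpt and Vgll3 had 3 spots in the section labelled trained and 181 in the section labelled untrained, and the striatum 216 and 32, so the sections did not hold the same tissue. The sections shared 3448 spot barcodes, which are fixed positions on the slide and not shared cells.

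Arc encodes a cytoskeletal protein of dendrites that takes part in the removal of AMPA receptors from synapses, and Egr1 a zinc-finger transcription factor. Both are transcribed within minutes of strong synaptic input, through calcium and the ERK (extracellular signal-regulated kinase) cascade acting on serum response factor and CREB, and both are widely used as marks of recently active neurons in the hippocampus. The 8 members fall into a few roles around such signalling. Dusp5 and Dusp6 are phosphatases that switch ERK off, in the nucleus and in the cytoplasm respectively. Rasd1, a Ras-family GTPase first found as a gene induced by dexamethasone, and Rasl11b are small GTPases. Fhl2 is a LIM-domain protein that acts as a scaffold and a transcription cofactor. Cpne7 is a copine, a protein that binds membranes in the presence of calcium. Zdhhc2 is a palmitoyltransferase whose substrates include the postsynaptic scaffold PSD-95. Hunk is a protein kinase related to the AMP-activated kinase.

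Promoter sequence was available for 5 of the 8 members, Dusp5, Dusp6, Fhl2, Rasl11b and Hunk, from RefSeq on GRCm38.p6. The 250 bases before the start of each RefSeq entry were searched on both strands for 7 motifs of factors that act at activity-regulated genes: the CRE (TGACGTCA) and its core (TGACG), which lies inside the full CRE, the EGR motif (GCGNGGGCG), the CArG box of serum response factor, the AP-1 motif (TGANTCA), the MEF2 motif and the TATA motif (TATAAA), of which the last 2 can overlap. The sequences of Dusp5 and Fhl2 are shown because they held CArG boxes, which 1.47% of 32851 windows of that length held, and that of Dusp6, the other ERK phosphatase, because it held none of the motifs. Capitals mark CArG boxes and CRE core sites (on the strand shown the core site reads CGTCA).
Dusp5, chr19:53528959-53529108, plus strand: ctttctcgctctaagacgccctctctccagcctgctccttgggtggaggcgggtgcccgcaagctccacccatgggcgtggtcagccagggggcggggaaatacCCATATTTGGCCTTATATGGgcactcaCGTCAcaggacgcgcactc
Fhl2, inner start, chr1:43163962-43164111, minus strand: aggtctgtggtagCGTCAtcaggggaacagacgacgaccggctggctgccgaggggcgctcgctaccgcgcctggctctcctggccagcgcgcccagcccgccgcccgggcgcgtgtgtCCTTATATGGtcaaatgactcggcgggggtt
Dusp6, chr10:99263081-99263230, plus strand: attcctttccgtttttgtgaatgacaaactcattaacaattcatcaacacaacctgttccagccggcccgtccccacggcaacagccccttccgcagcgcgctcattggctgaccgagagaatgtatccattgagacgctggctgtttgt
Dusp5 carried a tandem pair of CArG boxes, at 82 to 73 and 72 to 63 bases before the start, and a CRE core site at 55 to 51, counted from the start of the RefSeq entry, which lies 36 bases inside the gene as placed below. The inner start of Fhl2 had a CArG box at 31 to 22 and a CRE core site at 137 to 133. Its outer start, not printed because 223 of the 250 bases are annotated as exon, had a CArG box at 96 to 87, a MEF2 match at 31 to 22 and a TATA match at 28 to 23. No motif was found in the window of Dusp6 or in that of Rasl11b, of which 40 bases are annotated as exon. None was found in the window of Hunk either, but all 250 of its bases are annotated as exon, so the sequence before the gene was not searched. A CRE core site was in 17.8% of all windows, a TATA match in 12.4%, AP-1 in 6.75%, EGR in 4.70%, MEF2 in 2.92% and the full CRE in 1.55%. A match describes the letters of the window and is no evidence of binding.

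The genes lay on 7 chromosomes of GRCm38. Dusp5 was at chr19:53529109-53542431 (plus strand, 4 exons), Dusp6 at chr10:99263231-99267489 (plus, 3 exons) and Fhl2 at chr1:43123074-43196984 (minus, 6 exons). Rasd1 was at chr11:59963181-59964944 (minus, 2 exons), Rasl11b at chr5:74195286-74199481 (plus, 4 exons) and Hunk at chr16:90386013-90499553 (plus, 11 exons). Cpne7, at chr8:123117374-123135182 (plus, 12 exons), overlaps Gm20388 and Mir7080 on its own strand, so their reads may not be separable. Zdhhc2 was at chr8:40423815-40510268 (plus, 13 exons). On the other strand Dusp5 overlaps AC137853.2, Fhl2 overlaps Gm8210 and Zdhhc2 overlaps Cnot7. The counts are per gene and tell neither isoforms nor starts apart.

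The ERK phosphatases were both highest in CA1 and low in the dentate granule layer. Levels are given in counts per 1000000 (CPM), the UMIs of a gene in each 1000000 UMIs of the region, first for the section labelled trained and then for the section labelled untrained. In spots, as in other bulk samples, fewer cells of a type and less RNA per cell cannot be told apart. Dusp5 stood at 44.2 and 45.0 CPM in the CA1 layer and at 34.6 and 44.6 in the CA2 and CA3 layer, with overlapping intervals. It was at 2.33 and 6.14 in the dentate granule layer, on 3 and 24 UMIs, at 23.9 and 20.5 in the neocortex, and at 12.6 and 21.2 in the relay thalamus. Dusp5 was thus a gene of both hippocampal pyramidal layers, with a lower cortical level. Dusp6 was higher in CA1 than in the other hippocampal layers: 132 [113, 153] and 102 [91.5, 114] CPM in CA1 against 57.3 [44.9, 72.1] and 42.3 [35.7, 49.8] in CA2 and CA3. It was at 14.0 and 20.2 in the dentate granule layer. In the neocortex Dusp6 was higher in the upper layers (94.6 and 82.5) than in the deep Trbc2-led cluster (55.0 and 60.7), and the relay thalamus was at 22.9 and 32.7.

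The small GTPases had different maps. Rasl11b was highest in CA1 in both sections, at 254 [228, 283] and 134 [122, 148] CPM, with 104 and 69.3 in CA2 and CA3, 21.0 and 27.9 in the dentate granule layer, and 99.9 and 88.0 in the upper neocortex. It was low in the relay thalamus, at 22.4 and 13.5. Rasl11b was a gene of CA1 and cortex. Rasd1 was likewise highest in CA1, at 167 [146, 190] and 134 [122, 147] CPM, but its next region was the relay thalamus, at 102 [87.5, 117] and 104 [95.6, 113]. In the neocortex Rasd1 was at 9.93 and 10.5 CPM, below its level in the dentate granule layer (29.6 and 32.0). Rasd1 was dense in single spots, with up to 26 UMIs in 1 CA1 spot of the section labelled untrained. Its level in the midline thalamus was 86.8 CPM in the section labelled trained and 34.1 in the section labelled untrained, intervals that did not overlap.

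Fhl2 was a gene of cortex and CA1 with little thalamic signal. It stood at 82.6 and 83.7 CPM in CA1, 55.0 and 63.2 in CA2 and CA3, 16.3 and 25.8 in the dentate granule layer, and 87.5 and 78.1 in the upper neocortex, where its interval overlapped that of CA1 in each section. Its highest value in the section labelled trained, 130 CPM [94.98, 173] on 46 UMIs, was in the thin deep cortical cluster led by Cplx3, which read 57.9 [31.7, 97.2] on 14 UMIs in the section labelled untrained. In the relay and midline thalamus Fhl2 was between 2.75 and 7.57 CPM.

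Cpne7 differed most in place from Arc. In the hippocampus it was highest in the CA2 and CA3 layer, at 125 [106, 146] and 141 [129, 155] CPM, against 32.4 and 41.7 in CA1 and 5.45 and 14.8 in the dentate granule layer. Over the section it was highest in the midline thalamus of the section labelled trained (161 [146, 177]) and in the Cartpt-led cluster of the section labelled untrained (155), where the midline thalamus had 112 [102, 121]. The neocortex was at 14.96 and 17.0. In the section labelled untrained, 1 spot of the CA2 and CA3 layer held 39 UMIs of Cpne7.

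Zdhhc2 and Hunk were both highest in CA1. Zdhhc2 was at 134 [115, 155] and 105 [93.8, 116] CPM in CA1 and at 25.9 and 33.8 in CA2 and CA3, so that, of the pyramidal layers, CA1 carried most of its signal. It was at 65.3 and 59.9 in the upper neocortex and was seen at 15.4 CPM or more in all but 1 of the regions of both sections, the choroid plexus of the section labelled untrained. In the reticular and ventral forebrain GABAergic cluster Zdhhc2 was at 105 and 39.3 CPM, on 93 and 19 UMIs. That cluster was its highest region in the section labelled trained with spots thinned to 1000 UMIs. Hunk had the fewest UMIs of the members, with 329 and 815 UMIs over the sections. It was at 43.5 [33.1, 56.1] and 53.5 [45.9, 62.0] CPM in CA1, 21.2 and 23.2 in CA2 and CA3, 5.45 and 9.46 in the dentate granule layer and 18.6 and 18.5 in the upper neocortex.

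**Figure D1:**
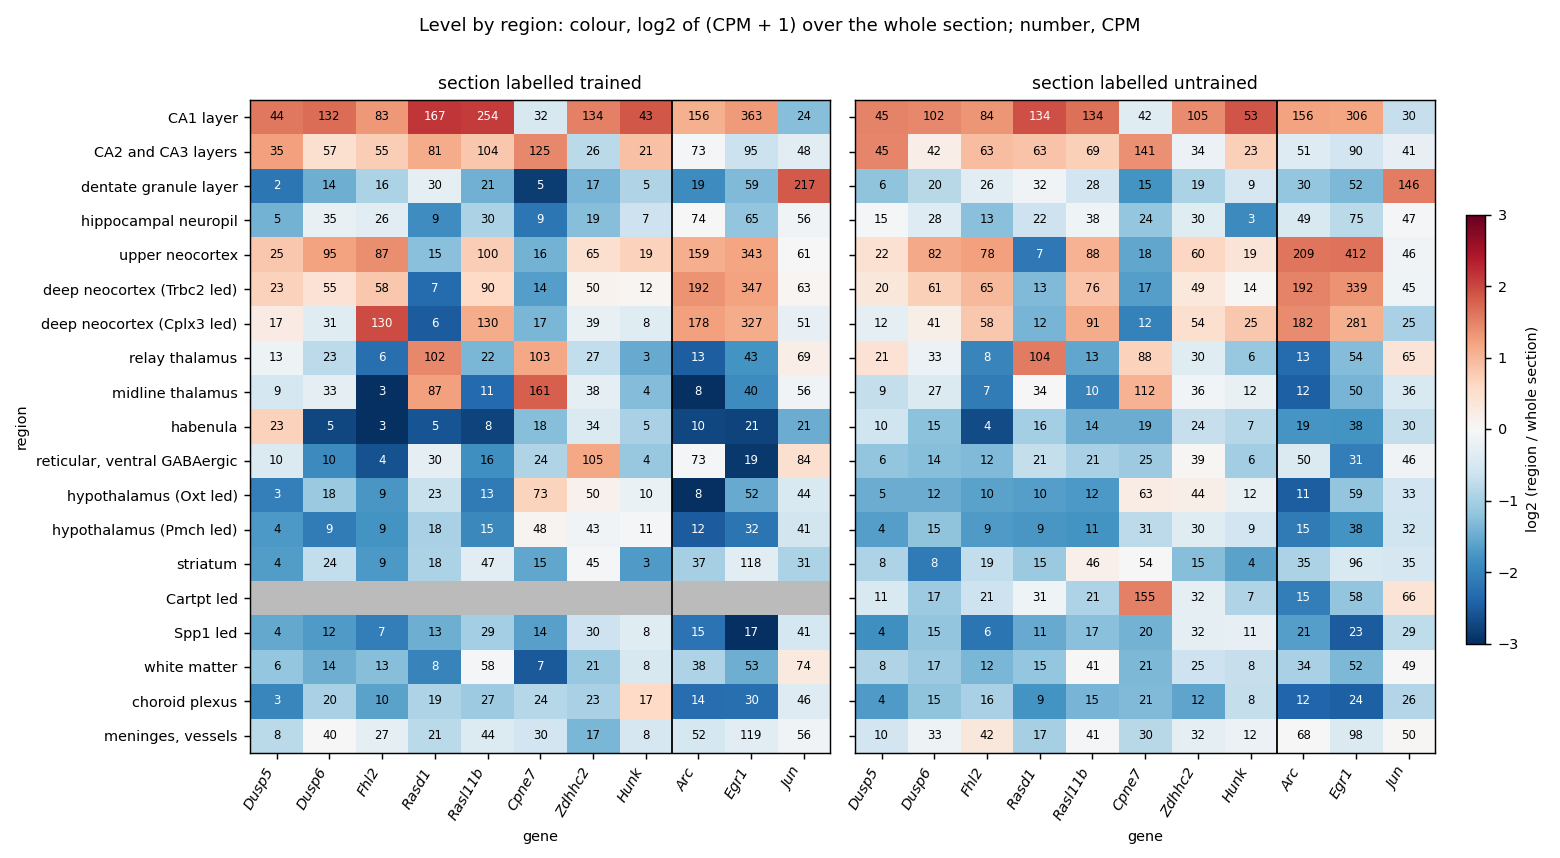
Level of the 8 genes and of Arc, Egr1 and Jun (columns) in each region (rows) of the section labelled trained (left) and untrained (right); the number in a cell is CPM and the colour is log2 of CPM + 1 in the region over that in the whole section, grey where a region held under 20 spots. In the section labelled trained 6 of the 8 members were highest in CA1 (4.86% of genes with at least 100 UMIs). In the section labelled untrained 7 of 8 were (3.52%). All 8 were below their CA1 level in the dentate granule layer of both sections, for which no share of all genes was computed. The choice of members by hippocampal spots in part fixes these counts, and nothing is read from them.

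Arc itself was not confined to the hippocampus. It was at 156 and 156 CPM in CA1, 73.1 and 51.1 in CA2 and CA3, 19.5 and 29.7 in the dentate granule layer, 178 and 199 in the neocortex and 12.6 and 12.7 in the relay thalamus. Egr1 was at 363 and 306 in CA1, 95.05 and 89.6 in CA2 and CA3, 59.1 and 51.7 in the dentate granule layer and 344 and 369 in the neocortex. Cpne7 was the only member whose level in CA2 and CA3 exceeded that in CA1, in contrast to Arc and Egr1. Since the members were chosen by hippocampal spots with Arc or Egr1, a shared order of the layers is in part fixed by that choice, and nothing is read from it. For Dusp5 the intervals of CA1 and of CA2 and CA3 overlapped in each section.

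**Figure D2:**
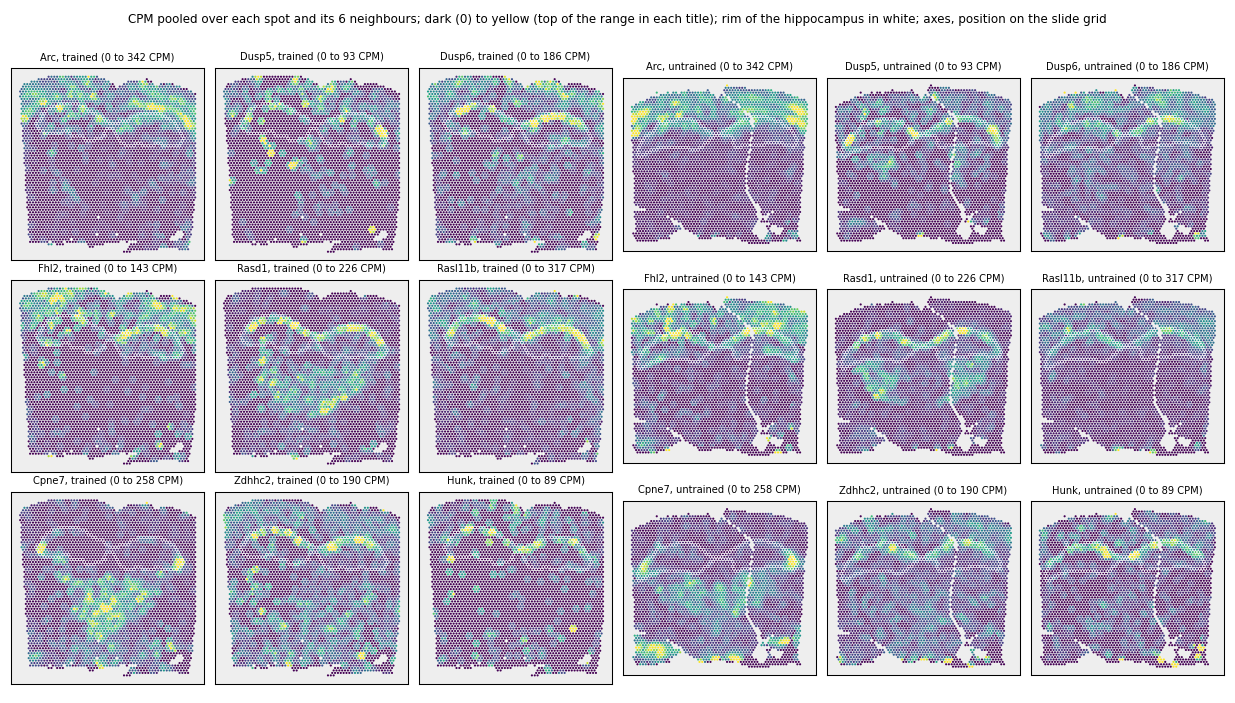
Level of Arc and the 8 members at each spot of the section labelled trained (left 3 columns) and untrained (right 3 columns), in CPM pooled over the spot and its 6 neighbours, from dark (0) to yellow (the top of the range in the title of each panel, the same for both sections); white points mark the rim of the hippocampus and other white gaps are positions without a spot. Rasl11b and Dusp6 follow the CA1 arc and the cortex, Rasd1 the CA1 arc and the thalamus, and Cpne7 the CA2 and CA3 end of the layer and the thalamus, where Arc is low.

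Over 18 regions with at least 20 spots in both sections, the rank correlation of log2 CPM with Arc was high for Rasl11b (0.83 and 0.91) and Fhl2 (0.81 and 0.81) and intermediate for Dusp6 (0.60 and 0.66), Dusp5 (0.51 and 0.63), Hunk (0.40 and 0.48) and Zdhhc2 (0.20 and 0.51). It was near 0 for Rasd1 (-0.24 and 0.04) and below 0 for Cpne7 (-0.43 and -0.40). With Egr1 the values ran from -0.15 and -0.08 (Cpne7) to 0.87 and 0.79 (Fhl2). These correlations describe regions of 1 section that share a library, and carry no test. A member correlated with itself in the other section at between 0.60 (Rasd1) and 0.93 (Rasl11b). The deposited Moran's I, a score that rises when neighbouring spots share a level, was highest for Cpne7 among the members (0.204 and 0.288) and lowest for Hunk (0.0313 and 0.0592). Arc scored 0.307 and 0.491, and the medians over genes with at least 400 UMIs were 0.0319 and 0.0399. Hunk also had the fewest UMIs of the members (329 and 815), in the section labelled trained under the 400 of those medians. Every member scored higher in the section labelled untrained, which was the deeper. The part of UMIs and depth in the score was not tested.

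The genes whose pattern over the regions was most like that of a member, by the lower of its 2 rank correlations among 8412 genes, differed from member to member. For Rasl11b they were Lrrc8b (0.89), Fhl2 (0.86) and the IEG Egr4 (0.84), and for Fhl2 the IEG Junb (0.88), Rprml (0.87) and Rasl11b (0.86). For Dusp6 they were Cck (0.86), a neuropeptide gene, Pip4k2c (0.80) and Mical2 (0.79), and for Dusp5 Sv2b (0.75), Ndfip2 (0.74) and Gnao1 (0.73). Rasd1 was most like Dclk2 (0.84), Galnt17 (0.76) and Lrrtm1 (0.71), and Cpne7 most like Nell1 (0.72), Trim8 (0.71) and Slc24a3 (0.67). Zdhhc2 was closest to Mtmr7 (0.76), Mgrn1 (0.75) and Fabp3 (0.73). Among the genes most like Hunk were Pld3 (0.67) and Ldha (0.67).

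In the hippocampus a spot was called positive for Arc or Egr1 at 1 UMI or more. Arc-positive spots numbered 208 of 576 in the section labelled trained and 346 of 559 in the section labelled untrained, and Egr1-positive spots 255 and 387. Positive spots were deeper: medians were 7868 against 3868 UMIs for Arc in the section labelled trained and 18300 against 12479 in the section labelled untrained, and 8272 against 3221 and 19236 against 10606 for Egr1. Levels were pooled and scaled to CPM, so depth does not enter the ratio directly, but it decides in part which spots are positive. For each member 3 values were computed: the crude log2 ratio of positive over negative spots, the ratio that the makeup of regions alone would give if every spot had the mean level of its region, and the ratio within regions, pooled over the 4 hippocampal regions by the Mantel-Haenszel method.

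The crude ratios, which chose the members, ran from 1.07 to 1.78 for Arc in the section labelled trained and from 0.92 to 1.41 in the section labelled untrained, and for Egr1 from 1.08 to 2.11 and from 0.75 to 1.66. All members compared were at least 1.5-fold higher in positive spots (7 of 7 and 8 of 8), as were 7.3% and 3.7% of all genes compared for Arc and 11.1% and 6.37% for Egr1. Hunk had 96 UMIs in the hippocampus of the section labelled trained, under the minimum of 100, and was not counted there. Nothing is read from these counts, since the rule used this contrast.

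Region alone gave a large part of the link to Arc. The ratios from region alone were 0.72 to 1.01 in the section labelled trained and 0.59 to 0.92 in the section labelled untrained. Within regions, the median over members fell from 1.48 to 0.58 in the section labelled trained and from 1.18 to 0.43 in the section labelled untrained. As a share of the crude log2 ratio, region accounted for a median of 59.0% and 61.9%. Within regions 3 of 7 members (Dusp6, Fhl2 and Rasd1) and 1 of 8 (Fhl2) remained at least 1.5-fold higher, as did 3.97% and 1.77% of all genes compared, whose medians were 0.12 and 0.05. For Egr1 the ratios from region alone were 0.51 to 0.95 and 0.50 to 0.65, and the median over members fell from 1.86 to 1.16 and from 1.15 to 0.69, with median region shares of 37.5% and 40.2%. Within regions 6 of 7 members (all but Fhl2) and 5 of 8 (Dusp5, Fhl2, Rasd1, Rasl11b and Hunk) were at least 1.5-fold higher, as were 5.44% and 4.54% of all genes compared, whose medians were 0.14 and 0.13.

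**Figure D3:**
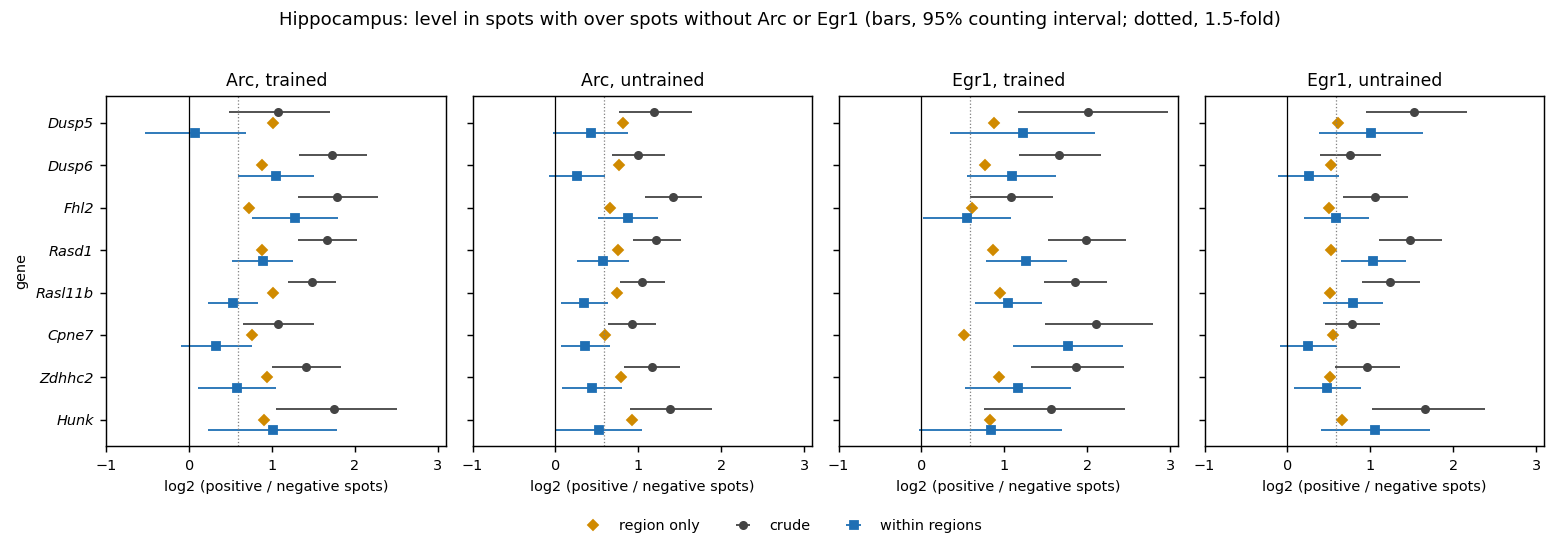
Log2 ratio of spots with over spots without Arc or Egr1 in the hippocampus for each member (rows), in 4 panels by gene and section label: crude (dark circles), from region alone (orange diamonds) and within regions (blue squares), with 95% counting intervals and a dotted line at 1.5-fold. Every value within regions is above 0, and Fhl2 lies farther right within regions for Arc (1.28 and 0.88) than for Egr1 (0.55 and 0.59).

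Fhl2 kept most of its link to Arc within regions. In the section labelled trained its level was 76.3 CPM in Arc-positive and 22.1 CPM in Arc-negative spots, on 166 and 48 UMIs, a crude ratio of 1.78 that became 1.28 [0.75, 1.80] within regions, and in the section labelled untrained 65.3 and 24.5 CPM gave 1.41 and 0.88 [0.51, 1.24]. Region accounted for 28.5% and 38.0%, the lowest shares among the members for Arc. Within CA1 alone the ratio was 1.33 [0.52, 2.26] and 1.97 [0.97, 3.19], and in the dentate granule layer of the section labelled untrained, on 101 UMIs, 0.85 [0.23, 1.49]. For Egr1, Fhl2 went from 1.08 to 0.55 [0.02, 1.08] and from 1.05 to 0.59 [0.20, 0.98].

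Dusp5 had the opposite pair of values. For Arc its crude ratio of 1.07 in the section labelled trained fell to 0.07 [-0.54, 0.68] within regions, with 1.01 given by region alone, a share of 93.2%, and 1.19 in the section labelled untrained became 0.43 [-0.03, 0.88]. For Egr1 it went from 2.01 to 1.22 [0.35, 2.10] and from 1.53 to 1.01 [0.38, 1.63], on 13 and 26 UMIs in Egr1-negative spots. In the CA2 and CA3 layer, where only 3 and 9 UMIs fell in Egr1-negative spots, the ratio for Egr1 was 2.48 [0.83, 4.82] and 1.20 [0.23, 2.36].

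Dusp6 differed between the sections in both links. For Arc, 1.73 became 1.04, with a lower bound of 0.58, within regions in the section labelled trained and 0.99 became 0.26 [-0.07, 0.60] in the section labelled untrained. For Egr1, 1.66 became 1.09 [0.55, 1.63] and 0.75 became 0.25 [-0.12, 0.63], so region accounted for 34.4% in the section labelled trained and 66.3% in the section labelled untrained. Within CA1 alone Dusp6 was at 154 CPM in Arc-positive and 69.6 CPM in Arc-negative spots of the section labelled trained, and at 105 and 75.4 in the section labelled untrained. The difference between the sections had no replicate.

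With all UMIs used, the small GTPases held a ratio above 0 within regions for both genes and in both sections. With spots thinned to 1000 UMIs, Rasl11b with Arc was at -0.19 and -0.11 and Rasd1 with Egr1 at -0.76 and -0.071. Rasd1 with Arc was then at -0.30 in the section labelled untrained. The other values of these genes did not change sign on thinning. Rasd1 went from 1.66 to 0.89 [0.52, 1.26] and from 1.22 to 0.57 [0.26, 0.89] for Arc, and from 1.98 to 1.26 [0.77, 1.76] and from 1.48 to 1.03 [0.64, 1.43] for Egr1. Its level in CA1 of the section labelled untrained was 145 CPM in Egr1-positive and 32.9 CPM in Egr1-negative spots, on 432 and 11 UMIs. Rasl11b went from 1.48 to 0.53 [0.23, 0.83] and from 1.05 to 0.35 [0.06, 0.63] for Arc, and from 1.85 to 1.05 [0.64, 1.46] and from 1.24 to 0.79 [0.43, 1.15] for Egr1. Region accounted for 64.4% and 66.7% of the link of Rasl11b to Arc.

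Cpne7 had the largest crude ratio for Egr1 in the section labelled trained, 2.11, of which 1.77 [1.10, 2.43] remained within regions and 16.4% was region. That value rested on 24 UMIs in Egr1-negative spots: in CA1 44 UMIs fell in 119 Egr1-positive spots and 0 in 60 Egr1-negative spots, and in CA2 and CA3 142 against 17 gave 1.77 [1.04, 2.59]. In the section labelled untrained the same gene went from 0.78 to 0.25 [-0.09, 0.60]. For Arc it went from 1.07 to 0.33 [-0.10, 0.75] and from 0.92 to 0.36 [0.06, 0.66]. Zdhhc2 went from 1.40 to 0.58 [0.11, 1.04] and from 1.16 to 0.44 [0.08, 0.81] for Arc, and from 1.86 to 1.16 [0.52, 1.81] and from 0.95 to 0.48 [0.08, 0.89] for Egr1. Hunk in the section labelled untrained went from 1.38 to 0.53 [0.01, 1.04] for Arc and from 1.66 to 1.06 [0.40, 1.72] for Egr1.

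Most UMIs behind these ratios lay in the pyramidal layers. In the dentate granule layer the members held 3 to 38 UMIs each in the section labelled trained and 24 to 125 in the section labelled untrained, and apart from Fhl2 with Arc only 1 value there had an interval off 0, Cpne7 with Egr1 in the section labelled untrained at -1.01 [-1.80, -0.20].

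Depth and cell makeup moved with positivity. When each region was also divided into 3 classes of spot depth, 3 of 7 members (Dusp6, Fhl2 and Rasd1) and 1 of 8 (Fhl2) stayed at least 1.5-fold higher for Arc, as did 2.29% and 1.11% of all genes compared. For Egr1 4 of 7 (Dusp5, Rasd1, Cpne7 and Zdhhc2) and 2 of 8 (Dusp5 and Hunk) did, and 2.86% and 2.62% of all genes. Fhl2 was at 1.16 and 0.64 for Arc in that setting, Dusp5 at 1.01 and 0.71 for Egr1, and Cpne7 at 1.501 and -0.08 for Egr1. In the section labelled untrained the values for Arc of the members other than Fhl2 lay between -0.01 (Rasd1) and 0.19 after that division. With every spot thinned to 1000 UMIs, 5 to 59 UMIs of a member were left in the hippocampus of the section labelled trained. Of 575 spots there, 39 stayed positive for Arc and 62 for Egr1. The ratio within regions then fell below 0 for Dusp6 (-1.30) and Rasl11b (-0.19) with Arc and for Rasd1 (-0.76) and Zdhhc2 (-1.55) with Egr1. In the section labelled untrained, thinning took it below 0 with Arc for Rasd1 (-0.30), Rasl11b (-0.11), Zdhhc2 (-0.15) and Hunk (-0.47). With Egr1 it fell below 0 there for Dusp6 (-0.46) and Rasd1 (-0.071). On the left side alone Rasd1 with Arc was at -0.011 in the section labelled trained. Marker sums moved too. Within regions the sum of 7 excitatory neuron markers differed by 0.27 and 0.19 (log2, Arc) and by 0.26 and 0.25 (Egr1), and the sums of 8 astrocyte markers by -0.40 and -0.24 and by -0.51 and -0.41. The sums of 8 oligodendrocyte markers differed by -0.34 and -0.48 and by -0.59 and -0.55, and those of 8 microglia markers by -0.46 and -0.10 and by -0.57 and -0.36. For 9 inhibitory neuron markers the differences were -0.44 and -0.05 and -0.51 and 0.13, and for 7 endothelial markers -0.24 and -0.28 and -0.12 and -0.34. Sums of excitatory markers ranged over 4644 to 4970 CPM in positive and 3755 to 4113 CPM in negative spots, and astrocyte sums over 494 to 610 and 687 to 1101 CPM. No marker of these lists was at 0, and their part in the member ratios was not tested.

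Jun, the third gene by which the study divided spots, served as a gene with another map: it was highest in the dentate granule layer, at 217 and 146 CPM. The crude ratios of the members in Jun-positive spots were all below 0, from -1.55 to -0.09 and from -0.87 to -0.05, and none of 7 and none of 8 members was at least 1.5-fold higher (9.81% and 5.16% of all genes). Region alone gave -1.03 to -0.17 and -0.81 to -0.13. Within regions the median over members was 0.31 and 0.05, and Dusp5 alone, at 0.78 [0.20, 1.37] in the section labelled trained, was at least 1.5-fold higher (1 of 7 and 0 of 8 members, 3.56% and 1.49% of all genes). In the same section Fhl2 was at 0.51 [0.07, 0.94], Rasd1 at 0.45 [0.13, 0.77] and Rasl11b at 0.31 [0.04, 0.59], intervals also above 0, and in the section labelled untrained the interval of every member took in 0. Zdhhc2 was lower in the section labelled trained, at -0.62 [-1.09, -0.15].

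The neocortex offered spots that the choice of members had not used. Arc was found in 490 of 650 and 570 of 650 neocortical spots, Egr1 in 579 and 617, so negative spots were few and shallower, with medians of 6303 and 10142 UMIs for Arc against 13709.5 and 17590.5 in positive spots. Within the neocortical regions none of 7 and none of 8 members was at least 1.5-fold higher in Arc-positive spots, where 3.47% and 7.63% of all genes were. The values ran from -0.77 [-1.41, -0.14] (Hunk) to 0.48 [0.05, 0.91] (Zdhhc2) in the section labelled trained and from -0.76 [-1.41, -0.10] (Cpne7) to 0.41 (Rasl11b) in the section labelled untrained. Hunk in the section labelled trained and Cpne7 in the section labelled untrained were thus at least 1.5-fold lower. That was 1 of 7 and 1 of 8 members, and 144 of 8617 and 297 of 9654 of all genes compared. Region alone gave only -0.23 to 0.16. Fhl2, which held its link to Arc within the hippocampal regions, was at 75.0 CPM in Arc-positive and 64.9 CPM in Arc-negative spots of the section labelled trained and at 71.8 and 52.3 in the section labelled untrained, ratios within regions of 0.20 [-0.14, 0.54] and 0.38 [-0.06, 0.82].

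For Egr1 in the section labelled untrained, the upper layers had 1 Egr1-negative spot and the Cplx3-led cluster 2, under the minimum of 3, so the values within neocortical regions there are those of the deep Trbc2-led cluster alone (376 positive and 30 negative spots), while those of the section labelled trained pool all 3 clusters, and the sections are not compared. With that limit 3 of 7 members (Dusp6 at 0.78 [0.06, 1.49], Cpne7 at 0.70 and Fhl2 at 0.62) and 2 of 8 (Cpne7 at 1.13 and Zdhhc2 at 0.87) were at least 1.5-fold higher, against 12.4% and 18.7% of all genes. The interval of Cpne7 ran from -0.89 to 3.14 in the section labelled untrained, where 2 UMIs fell in Egr1-negative spots. Of these 5 values Dusp6 alone had an interval above 0. Dusp5 was at -0.27 [-1.12, 0.58] in the section labelled trained and, in the deep cluster of the section labelled untrained, at -0.24 [-1.42, 0.94], on 12 and 6 UMIs in Egr1-negative spots. Rasd1 was at -0.25 [-1.70, 1.19] in the section labelled untrained, on 4 UMIs in Egr1-negative spots. It was at 0.90 [-1.16, 2.95] in the section labelled trained, on 2 UMIs in Egr1-negative spots and 81 in all, too few to be counted among the members compared. Hunk was at -0.90 [-1.83, 0.03] in the section labelled trained and, in the deep cluster of the section labelled untrained, at -0.98 [-2.09, 0.13], with intervals that took in 0.

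**Figure D4:**
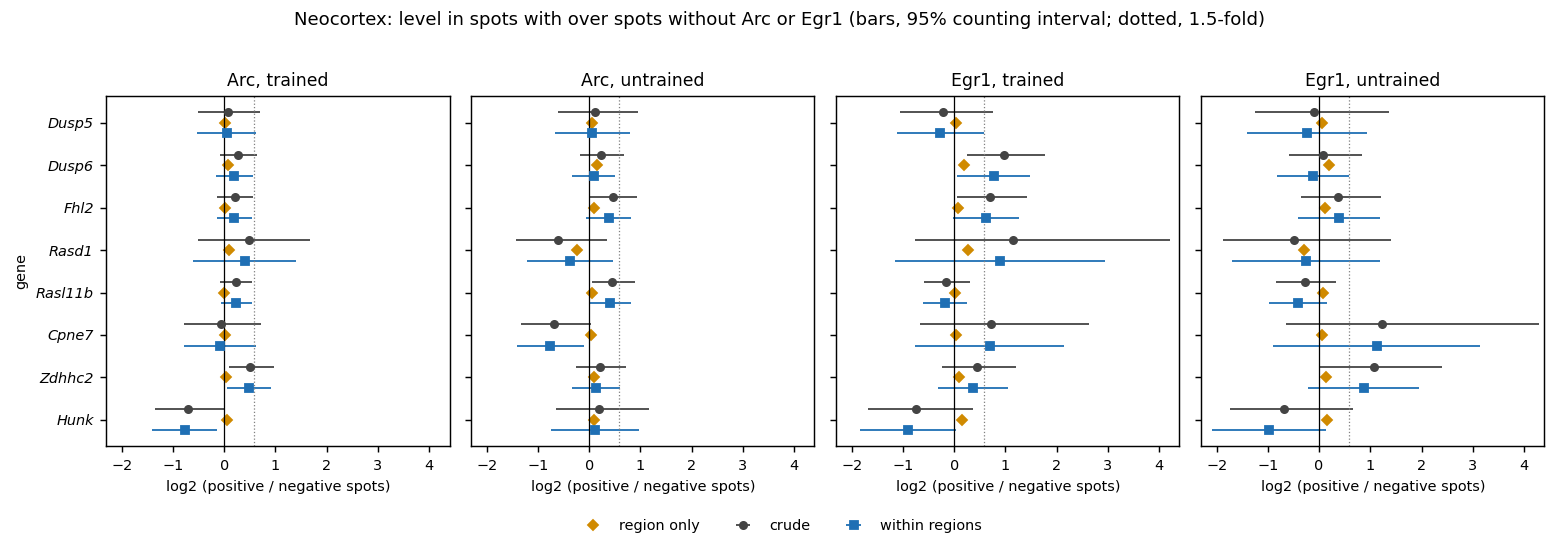
Log2 ratio of spots with over spots without Arc or Egr1 in the neocortex for each member (rows), in 4 panels by gene and section label, with the same signs as for the hippocampus: crude (dark circles), region alone (orange diamonds), within regions (blue squares), 95% counting intervals and a dotted line at 1.5-fold. For Egr1 in the section labelled untrained the squares are the deep Trbc2-led cluster alone. The diamonds lie near 0 and most intervals within regions take in 0.

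Over the whole section the link to Arc was mostly region. The crude ratio of Fhl2 went from 2.15 to 0.51 within regions and from 1.96 to 0.61, that of Rasl11b from 1.58 to 0.31 and from 1.71 to 0.40, and that of Dusp6 from 1.57 to 0.54 and from 1.28 to 0.26. Cpne7 reversed: it was lower in Arc-positive spots of the section as a whole, at -0.90 and -0.40, with 0.10 and 0.12 within regions. Rasd1 had a crude ratio of -0.05 and 0.16 over the section against 1.66 and 1.22 in the hippocampus. In the relay and midline thalamus, where both are high, Rasd1 was at -0.12 and 0.03 within regions for Arc and Cpne7 at -0.07 and 0.07. For Egr1 in the same thalamic regions Rasd1 was at 0.23 [-0.08, 0.54] and -0.05 [-0.26, 0.17], Cpne7 at 0.28 [0.02, 0.53] and 0.20 [0.01, 0.38] and Zdhhc2 at 0.63 [0.14, 1.12] and -0.07 [-0.38, 0.24]. Dusp5 was at 0.63 [0.12, 1.14] for Arc there in the section labelled untrained, and its 47 UMIs in the section labelled trained were too few to compare.

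The families of the members and the pathway around them were read beside them, as lists chosen with earlier results of these data known; the shares of all genes that passed within regions, given above, were 3.97% and 1.77% for Arc and 5.44% and 4.54% for Egr1. Of the 10 MAP kinase phosphatases, 4 and 5 had enough UMIs in the hippocampus, and within regions none but the members Dusp5 and Dusp6 was at least 1.5-fold higher for Arc or Egr1 in either section. Of the sprouty and spred type feedback inhibitors of ERK, 4 and 5 of 9 were measured and none passed. Of 26 genes of the ERK cascade, 19 and 22 were measured. Nras passed for Arc at 0.94 in the section labelled trained and Rps6ka3, an ERK-activated kinase, for Egr1 at 0.92 in the section labelled untrained, and Etv5 was lower, at -0.60, for Egr1 in the section labelled trained. Those 3 were named after their values were seen, and none passed in both sections. Of the FHL family Fhl2 was the only one of 4 measured to pass.

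Among the palmitoyltransferases 9 and 18 of 21 were measured. For Arc 3 and 1 were higher, and Zdhhc22 was lower in the section labelled untrained, at -0.69 [-1.19, -0.20]. For Egr1 3 and 2 were higher, and Zdhhc23 passed for Egr1 in both sections, at 0.87 [0.41, 1.33] and 0.74 [0.25, 1.22]. The 3 for Egr1 in the section labelled trained include the member Zdhhc2, which this contrast had chosen. Of the RASD and RASL family 7 and 11 of 13 were measured: for Egr1 Rasd1 and Rasl11b passed in both sections and Rerg, at 1.12 [0.27, 1.96], in the section labelled untrained. For Arc Rasd1 passed in the section labelled trained, where Rasl10b was lower, at -0.74 [-1.08, -0.41]. Zdhhc22, Rerg and Rasl10b were named after their values were seen. Of 4 and 7 copines measured, 1 passed for Egr1 in each section, Cpne7 in the section labelled trained and Cpne8 (0.75, named after its value was seen) in the section labelled untrained. Of 16 AMPK-related kinases 8 and 12 were measured, and 0 and 1 passed for Arc and 0 and 1 for Egr1. The member Hunk passed for Egr1 in the section labelled untrained. It was under the minimum of UMIs in the section labelled trained, so it could not pass in both. Of 33 IEGs 19 and 27 were measured, and 3 and 7 passed for Arc and 4 and 7 for Egr1. Egr1 itself was at 0.63 and 0.90 for Arc. Nr4a1, an orphan nuclear receptor and IEG, passed for both, at 0.77 and 0.93 for Arc and 0.95 and 0.96 for Egr1. Nptx2, a synaptic pentraxin, passed for Egr1 at 0.90 and 0.84. Of the excitatory neuron markers, 1 of 6 and 1 of 7 passed for Egr1, in both sections Neurod6, at 1.02 and 0.75, and the medians of that list were 0.32 and 0.24.

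Between the sections, Rasl11b was the only member compared that differed by at least 1.5-fold in the hippocampus (1 of 7; 12.7% of all genes). It was at 119 CPM in the section labelled trained and 72.2 in the section labelled untrained, a log2 ratio of 0.72 [0.56, 0.88], where the median over all genes was 0.07. With every spot weighted equally it was 0.44, and thinned to 1000 UMIs a spot 0.55, both under 1.5-fold. That weighting moved 6 of the 7 members out of their counting intervals, all but Fhl2. The difference was not limited to the hippocampus: the rest of the section was at 48.7 and 34.7 CPM, a ratio of 0.49 [0.38, 0.60]. Within CA1 Rasl11b was at 0.92 [0.71, 1.13] and in CA2 and CA3 at 0.58 [0.26, 0.89], and in the dentate granule layer (-0.39 [-1.07, 0.21]) and the neuropil (-0.32 [-1.43, 0.66]) the intervals took in 0. Of these layers only CA1 held 400 UMIs of Rasl11b. Dusp6 was at 0.36 [0.14, 0.56] and Rasd1 at 0.27 [0.09, 0.45] in the hippocampus, with 0.12 and 0.13 in the rest of the section, and Cpne7 was lower, at -0.31 [-0.54, -0.09] and -0.22. With every spot weighted equally Dusp6 was at 0.02, Rasd1 at 0.01 and Cpne7 at -0.87 in the hippocampus, and Dusp5 at -0.58 and Zdhhc2 at -0.04. With UMIs pooled, the intervals of Dusp5 (-0.24), Fhl2 (-0.11) and Zdhhc2 (0.20) took in 0, and Hunk had under 400 UMIs in all and was not compared. Arc was at 0.17 [-0.02, 0.34] and Egr1 at 0.25 [0.12, 0.38]. Animal, section plane, library and training cannot be told apart here.

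**Figure D5:**
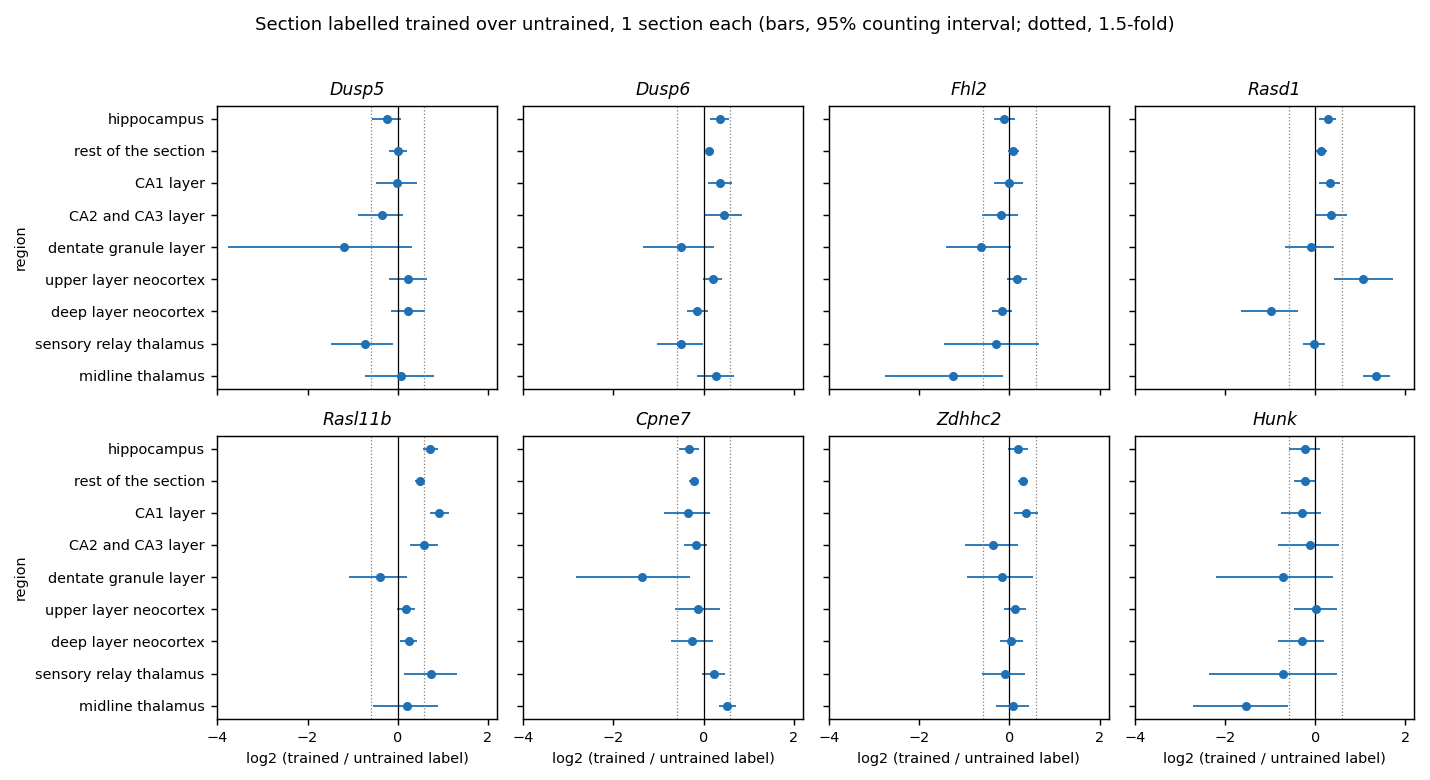
Level under the label trained relative to the label untrained (log2 ratio) for each member (panels) in the hippocampus, the rest of the section and 7 regions (rows), with 95% counting intervals and dotted lines at 1.5-fold in either direction; 1 section per label. Rasl11b lies right of 0, with an interval off 0, in the hippocampus, the rest of the section, CA1, CA2 and CA3, the deep neocortex and the relay thalamus. Regions in which a member had under 400 UMIs are drawn too.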

How the data were processed

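RNA was captured from 1 section (10 µm) of each of 2 mice on Visium slides. The authors aligned and counted with Space Ranger 2.0.0 on mm10, and deposited filtered matrices of UMI counts per gene and spot, raw counts that are not normalised. The deposited Moran's I, a score of spatial autocorrelation per gene, was also read. The members and gene lists were chosen with earlier results of these data known. Groups came from the sample labels.

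Spots with at least 500 UMIs were scaled to 10000, log transformed and, with 3000 variable genes (members, IEGs and list genes removed, values capped at 10), reduced to 30 components and clustered with Leiden (15 neighbours, resolution 1.5, seed 7) into 20 clusters, named from fixed markers where the score exceeded 0.5 and at least 1 marker, and no more of another set, was among the 10 leading genes. The hippocampal neuropil was assigned by position, as the unnamed cluster with the largest share of its spots (45.3%) beside the cell layers. The score threshold was set after scores were seen, and it decides the name of 1 cluster, the Trbc2-led deep neocortex. No doublet caller was run on spots.

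Counts were pooled per region and scaled to CPM. Positive spots had at least 1 UMI of Arc, Egr1 or Jun. Ratios used a gene with at least 100 UMIs in the area within a section and at least 400 between sections, the latter with a pseudocount of 0.5 UMI. Within-region ratios are Mantel-Haenszel ratios over regions with at least 3 positive and 3 negative spots, and the region share is 100% less the ratio of the within-region to the crude log2 value. Intervals (95%) were exact Poisson for CPM, exact conditional binomial for ratios and Greenland-Robins for pooled ratios, and cover counting error only. A gene was counted as higher at 1.5-fold or more. Genes of the lists were named where they passed in both sections, at most 5 per list, and other names were chosen after their values were seen. The ratios were tested on simulated data. Clustering used scanpy 1.11.5 with leidenalg 0.10.2, igraph 0.11.9 and scikit-learn 1.9.0, and ratios used scipy 1.17.1, numpy 2.4.6 and pandas 2.3.3 under Python 3.11.15. Alternatives were other thresholds for a positive spot, spots thinned to 1000 UMIs, depth classes, other clusterings, spots beside positive spots, either hemisphere and a minimum of 200 UMIs. For each member the 3 genes most like it over the regions were named, except 1 that is not reported here.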

Additional observations from a re-analysis of the deposited data

Results flagged for a closer look

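Between the sections, 5 members had regions at least 1.5-fold higher and regions at least 1.5-fold lower, each with an interval off 0, as did 8.07% of 11460 genes with at least 400 UMIs in all. The 10 values below rest on fewer UMIs than the 400 asked of a comparison between the sections. The largest ratio each way is given. Chance over many regions was not tested, the difference between regions was not tested, and each label has 1 section. Values are log2 ratios of the label trained to the label untrained, with levels in that order.

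Rasd1, the dexamethasone-induced GTPase, met this in 5 regions upward and 1 downward, Cpne7 in 1 and 3, Zdhhc2 in 3 and 1, and Fhl2 and Hunk in 1 and 1. Of all genes with at least 400 UMIs in the region, 12.9% were at least 1.5-fold apart either way in the midline thalamus, no interval asked. That share was 7.46% in the deep Trbc2-led neocortex, 14% in the Pmch-led hypothalamus and 21.8% in the striatum. It was 13.8% in the Cplx3-led cluster, 14.4% in meninges and large vessels and 19.3% in the choroid plexus. Rasd1 was higher in the midline thalamus, at 1.35 [1.05, 1.65] (86.8 and 34.1 CPM, 221 and 162 UMIs), and lower in the deep Trbc2-led neocortex, at -0.98 [-1.65, -0.38] (6.57 and 13.1 CPM). Cpne7 was higher in the Pmch-led hypothalamus, at 0.63 [0.24, 1.03], and lower in the striatum, at -1.90 [-2.82, -0.85], on 32 and 14 UMIs. Fhl2 was higher in the Cplx3-led deep neocortex, at 1.13 [0.28, 2.14], and lower in the midline thalamus, at -1.26 [-2.76, -0.14], on 7 and 33 UMIs. Zdhhc2 was at 1.39 [0.15, 3.45] in the striatum, on 98 and 4 UMIs, and at -0.83 [-1.76, -0.06] in meninges and large vessels. Hunk was at 1.15 [0.05, 2.08] in the choroid plexus, on 12 and 39 UMIs, and at -1.53 [-2.72, -0.60] in the midline thalamus, on 10 and 56. The striatum held 216 and 32 spots, and its part in the values for Cpne7 and Zdhhc2 was not tested.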

How the results depend on the processing

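No paired analysis was possible because each group has 1 section and the groups share only the replicate number 1. Of 722 member values under alternatives, 87 changed sign. Of the values that were at least 1.5-fold, in either direction, 11 changed sign, 7 of them after thinning each spot to 1000 UMIs, which left 5 to 59 UMIs of a member in the hippocampus of the section labelled trained. The other 76 sign changes were of values under 1.5-fold, 23 of them after thinning. Apart from those 11, 619 values stayed inside their counting interval and 92 left it. In parentheses after a count is the share of all genes compared that passed at the same setting, where a gene left with 0 UMIs in negative spots counts as higher.

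The counts of members at least 1.5-fold higher within hippocampal regions for Arc, section labelled trained, went from 3 of 7 (3.97%) to 5 with positivity at 2 UMIs (13.2%), with regions at resolution 0.8 (7.6%) and against adjacent negative spots (11.1%). In the section labelled untrained they went from 1 of 8 (1.77%) to 2 when thinned (25.5%), 5 at 2 UMIs (4.59%), 4 at resolution 0.8 (2.61%), 2 against adjacent spots (4.67%) and 4 on the left side (6.38%). For Egr1 they went from 6 of 7 (5.44%) to 2 when thinned (20.1%), and in the section labelled untrained from 5 of 8 (4.54%) to 3 when thinned (26.4%), 2 with depth classes (2.62%), 2 at resolution 3 (2.88%) and 3 against adjacent spots (7.24%). For Jun they went from 1 of 7 (3.56%) to 4 when thinned (21.7%), 0 with depth classes (2.07%), 2 against adjacent spots (9.86%), 3 on the left side (12.7%) and 0 at a minimum of 200 UMIs (1.39%), and in the section labelled untrained from 0 (1.49%) to 1 when thinned (27.5%). In the neocortex the counts for Arc went from 0 (3.47%) to 2 when thinned (17.8%), 1 at resolution 3 (3.16%), 2 against adjacent spots (7.08%) and 1 on the right side (9.42%), and in the section labelled untrained from 0 (7.63%) to 2 when thinned (19.8%), 1 against adjacent spots (11.6%) and 2 on the right side (19.2%). For Egr1 in the section labelled trained the neocortical count went from 3 (12.4%) to 1 when thinned (15.9%). Between the sections the count went from 1 (Rasl11b, 12.7%) to 2 when thinned (Dusp5 and Cpne7, 23.1%), 2 on the left side (Dusp5 and Rasl11b, 15.4%) and 0 less the ratio of the rest of the section (1.19%), and with every spot weighted equally it was 1 (Cpne7, 10.8%). Members highest in CA1 went from 6 of 8 (4.86% of genes with at least 100 UMIs) to 3 when thinned (3.22%) in the section labelled trained and from 7 of 8 (3.52%) to 4 with every spot weighted equally (2.16%) in the section labelled untrained.

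Of the values at least 1.5-fold, signs changed after thinning in the section labelled trained for Dusp6 with Arc (-1.30), Rasd1 and Zdhhc2 with Egr1 (-0.76 and -1.55) and Zdhhc2 with Jun (0.66) in the hippocampus, and for Fhl2 (-0.19) and Hunk (1.15) with Egr1 in the neocortex. Rasd1 with Egr1 was at -0.071 when thinned in the section labelled untrained. The rest of the 11 were in the section labelled trained: Rasd1 with Arc on the left side alone (-0.011), Dusp5 with Jun at 2 UMIs (-0.17), and, with Egr1 in the neocortex, Fhl2 against adjacent spots (-0.30) and Cpne7 on the right side (-0.33). Thinning also left 39 of 575 hippocampal spots of the section labelled trained positive for Arc, in place of 208 of 576, and 62 for Egr1, in place of 255. The cause was not tested.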
